A study of Aliger gigas with 7 samples.

Results

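The enzymes and transporters that alter, conjugate and export foreign and endogenous compounds were examined in the ovary of the queen conch, a large marine snail of the Florida Keys. They were picked by title: 52 of the 4328 gene titles in the authors' table named a glutathione transferase, a UDP-sugar transferase, an ATP-binding cassette (ABC) protein, an epoxide hydrolase, a carboxylesterase, an aldo-keto reductase, or an aldehyde, alcohol, retinol or short-chain dehydrogenase. The search also covered flavin monooxygenases and quinone reductases, for which 0 titles were found. Titles of NADH, cytochrome P450 and ubiquinone were left out by the rule. A title is the name that the authors attached to a conch sequence, often that of a vertebrate, insect or plant protein, so it gives the nearest named protein and not a proven conch orthologue.

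Ovary RNA of 7 wild mature animals was hybridised to one-colour arrays, 1 animal per array, with no experimental treatment. The reference group was 4 normal females from the offshore site Pelican Shoal (OF1 to OF4), where reproduction is normal. The nearshore group came from Tingler Island, where reproduction is impaired, and held 2 normal females (NF1 and NF3) and 1 apparent imposex female (NM3), a female that bears male sexual characters. Ages were not given in the sources used here, and each group stands for 1 site, so site and collection cannot be told apart. Values are log2 signals between 0.27 and 17.53, and a difference of 1 is a doubling if the log base, which is not stated, is 2.

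Cells deal with lipophilic compounds in steps. Oxidoreductases and hydrolases expose or create a reactive group, transferases then attach glutathione or a sugar, and ABC transporters carry the product across a membrane. The same families also handle the cell's own molecules: aldehyde dehydrogenases of family 1 make retinoic acid in vertebrates, and aldo-keto reductases and short-chain dehydrogenases act on steroids and retinoids. In snails the gonad lies against the digestive gland, the organ that makes digestive enzymes and much of the detoxification machinery, so an ovary sample can hold tissue of both.

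Marker titles were read for tissues that the samples may hold. They were picked by words in the titles, so not each of them is specific to its tissue. Vitellogenin 2, the yolk precursor, and Piwi-like 1, a germ line RNA regulator, were bright, with Piwi-like 1 between 14.19 and 15.06 offshore and between 11.55 and 13.47 nearshore (adjusted p = 0.0580). The summed level of 5 ovary and oocyte titles, as a log2 value, ran from 17.10 to 17.50 offshore and from 13.68 (NF1) to 17.18 nearshore. It largely followed Vitellogenin 2, which was at 16.81 to 17.34 offshore and 12.69 (NF1) to 17.03 nearshore. Vitellogenin 2 and Piwi-like 1 were the 2 titles with lower means nearshore, and the other 3 had higher means there. Among those, Bol, Boule-like differed by 1.34 (adjusted p = 0.0804 in limma). Over 12 titles picked as muscle it ran from 11.04 to 11.36 offshore and from 11.94 to 12.73 nearshore, with no overlap, and 3 of the 12 rose. Among the 3 was Myosin, Heavy Polypeptide 9, Non-muscle (means 7.71 offshore and 9.70 nearshore), which by its own title is not a muscle protein. Means were higher nearshore in 9 of the 12 titles and lower in 3. Over 20 digestive gland titles it ran from 7.52 to 14.21 offshore and from 8.39 to 12.18 nearshore, but a single title made up much of it. Amylase, Alpha 1A; Salivary gave 56.7% to 93.8% of the sum in OF1, OF3, NF1 and NM3, and Lipase 1 gave 30.9% to 63.0% in OF2, OF4 and NF3. The sum thus follows a few bright probes and was not shown to measure the amount of digestive gland. The haemocyte sums were 17.31 to 18.14 offshore and 16.41 to 17.50 nearshore, though 10 of the 12 haemocyte titles had higher means nearshore and 2 lower. Of the 12, 1 rose and 1 fell. The rise was in Fibrinogen C Domain Containing 1 (means 3.48 offshore and 8.20 nearshore, limma adjusted p = 0.0128). The fall was in Collectin Sub-family Member 11 (means 17.07 offshore and 15.59 nearshore, limma adjusted p = 0.0176). Much of the haemocyte sum came from this title and from C-type Lectin Domain Family 4, Member A (16.19 and 16.24). The nerve sums were 8.17 to 9.31 and 9.35 to 10.33, though 4 of the 6 nerve titles had lower means nearshore. Of the 6, only Synaptotagmin XV was called, and it rose (means 2.61 and 3.94, limma adjusted p = 0.0367). The lowest value of the whole table was 0.27 and there are no detection calls, so whether a dim marker was present cannot be read from its level. In whole tissue, fewer cells of a type and less RNA per cell cannot be told apart.

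Of the 52 titles, 5 differed between the sites. Aldehyde Dehydrogenase 1 Family, Member A2 rose nearshore, and Short-chain Dehydrogenase/reductase, Similar To Carboxylesterase Family Member, ATP-binding Cassette, Sub-family A, Member 2, and Aminoadipate-semialdehyde Dehydrogenase-phosphopantetheinyl Transferase fell. The test was limma's moderated test on the whole table, and a title is said to have risen or fallen where its Benjamini-Hochberg adjusted p was under 0.05. The share called, 9.62% of the members, lay close to the 9.24% of all titles that were called. The 1 rise compares with 3.9% of all titles, and the 4 falls with 5.34%. Among the 31 members above the median level of the table, 3 were called (9.68%), against 14.9% of all titles above it. The groups did not overlap in 9 members (17.3%), against 24.4% of all titles. The median log2 fold change was 0.06 over the members and -0.01 over all titles, and 29 members lay above 0 and 23 below.

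**Figure D1:**
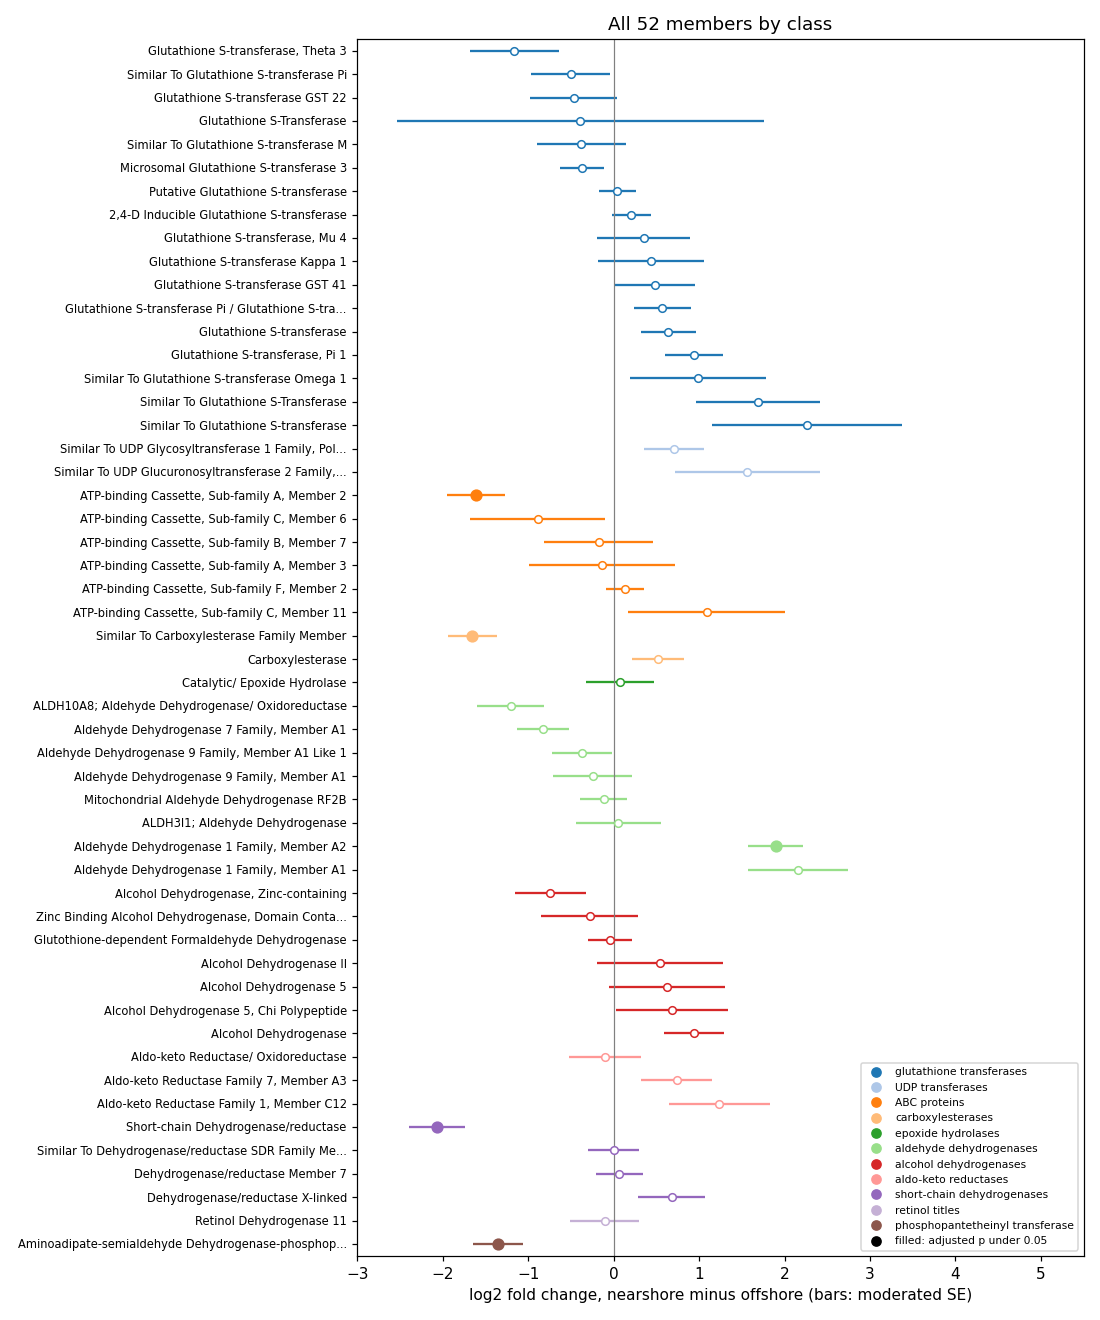
Log2 fold change of each of the 52 titles, nearshore minus offshore, with the moderated standard error as a bar and the class as the colour. Filled points passed the adjusted p of 0.05: 1 lies above 0, at 1.89, and 4 lie below, from -2.07 to -1.35.

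The aldehyde dehydrogenases, which oxidise aldehydes to acids, held the rise. Aldehyde Dehydrogenase 1 Family, Member A2, which in vertebrates makes retinoic acid from retinal, was at 9.22, 8.07, 8.46 and 8.52 in OF1 to OF4, and at 10.30 in NF1, 10.71 in NF3 and 10.37 in NM3. Each nearshore animal lay above each offshore animal. It rose from 8.57 ± 0.48 (SD, n = 4) to 10.46 ± 0.22 (n = 3), a shift of 1.89 on the log2 scale (SE 0.32, limma adjusted p = 0.0196), or 3.72-fold. Leaving out 1 array kept the change between 1.73 and 2.11, and the call was lost without OF3, OF4, NF1 or NF3 (adjusted p from 0.0502 to 0.0658).

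Aldehyde Dehydrogenase 1 Family, Member A1, which also oxidises retinal in vertebrates, had the same ordering of sites. It was at 7.65, 7.69, 6.83 and 6.19 in OF1 to OF4, and at 10.30 in NF1, 8.17 in NF3 and 9.27 in NM3. The groups did not overlap, but the nearshore animals were spread over more than 2 units. The log2 fold change was 2.16 (SE 0.58) and missed the threshold (adjusted p = 0.0629). It was 2.69 and passed without NF3 (adjusted p = 0.0464), and it passed with the dimmest titles left out (adjusted p = 0.0437) and with a robust prior (adjusted p = 0.0411). Between the family 1 titles the animals were ordered differently, since NF1 was the highest in Member A1 and NF3 in Member A2.

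Of the other 6 aldehyde dehydrogenase titles none passed, and 2 separated the sites in the opposite direction. ALDH10A8; Aldehyde Dehydrogenase/ Oxidoreductase, a name taken from a plant enzyme, was at 6.95 to 8.54 offshore and 6.15 to 6.74 nearshore (-1.21, SE 0.40, adjusted p = 0.107). Aldehyde Dehydrogenase 7 Family, Member A1, an enzyme of lysine breakdown in vertebrates, was at 7.77 to 8.82 offshore and 7.43 to 7.60 nearshore (-0.83, SE 0.30, adjusted p = 0.136). The titles Aldehyde Dehydrogenase 9 Family, Member A1 and Member A1 Like 1, named for an enzyme of carnitine synthesis, moved together over the 7 animals. NF1 lay 1.24 below the mean of the former and 0.99 below the mean of the latter, and no animal's deviations differed by more than 0.35 between them. The remaining plant-named titles, ALDH3I1; Aldehyde Dehydrogenase and Mitochondrial Aldehyde Dehydrogenase RF2B, stood at 0.99 to 3.05 in all animals, near the bottom of the scale.

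Aminoadipate-semialdehyde Dehydrogenase-phosphopantetheinyl Transferase matched by its words but is no aldehyde dehydrogenase. It attaches the phosphopantetheine arm to carrier domains such as that of fatty acid synthase. It was at 5.79, 5.45, 5.55 and 6.41 in OF1 to OF4, and at 4.36 in NF1, 4.58 in NF3 and 4.40 in NM3. The 3 nearshore animals lay close together and below all offshore animals. It fell by 1.35 (SE 0.29, limma adjusted p = 0.0355), or 2.56-fold, and passed in 0 of the 7 fits without 1 array (adjusted p from 0.0571 to 0.0890), with changes from -1.47 to -1.15.

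The largest called change was in the short-chain dehydrogenases, a family that oxidises or reduces alcohols, steroids and retinoids. Short-chain Dehydrogenase/reductase was at 7.94, 8.28, 7.42 and 7.33 in OF1 to OF4, and at 5.24 in NF1, 5.82 in NF3 and 5.96 in NM3. The gap between the sites was wider than the spread within either of them. It fell from 7.74 ± 0.45 (n = 4) to 5.68 ± 0.38 (n = 3), by 2.07 (SE 0.33, adjusted p = 0.0176), or 4.19-fold. The change lay between -2.21 and -1.85 when 1 array was left out, and the call was lost without OF3 (adjusted p = 0.0586), OF4 (0.0545) or NF1 (0.0532).

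The other titles of that family did not pass. Dehydrogenase/reductase X-linked, whose name comes from the human X chromosome and says nothing of conch chromosomes, was at 9.13 to 10.61 offshore and 10.26 to 10.95 nearshore (log2 fold change 0.68, adjusted p = 0.332). Dehydrogenase/reductase Member 7 was nearly level, with 9.98 ± 0.13 offshore and 10.04 ± 0.45 nearshore, and NF1 was the highest animal at 10.56. Similar To Dehydrogenase/reductase SDR Family Member 7 Precursor had equal means of 6.33 at both sites. Retinol Dehydrogenase 11, which reduces retinal in vertebrates and so works against the aldehyde dehydrogenases of family 1, was at 6.59 to 8.18 offshore and 6.99 to 7.70 nearshore (-0.11, SE 0.40, adjusted p = 0.903).

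None of the 7 alcohol dehydrogenase titles passed in limma, and 1 had an unadjusted p under 0.05. That title, Alcohol Dehydrogenase, was at 2.56 to 3.85 offshore and at 4.10 to 4.24 nearshore, without overlap (log2 fold change 0.94, SE 0.35, adjusted p = 0.142). Alcohol Dehydrogenase 5 and Alcohol Dehydrogenase 5, Chi Polypeptide name the same enzyme, the class that removes formaldehyde bound to glutathione. Both were lowest in OF2, at 5.53 and 7.47, which was 1.92 and 1.70 below the next animal. Their deviations differed by at most 0.53, and neither differed between sites (0.62 and 0.68, adjusted p = 0.622 and 0.567). Glutothione-dependent Formaldehyde Dehydrogenase, spelt so in the table and one more name for that class, stayed at 2.01 to 2.69. Alcohol Dehydrogenase, Zinc-containing was at 1.48 to 2.97 offshore and 1.13 to 1.63 nearshore (-0.74, adjusted p = 0.312). Alcohol Dehydrogenase II was highest in NM3, at 8.06, and in OF1, at 7.33.

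The 3 aldo-keto reductases, which reduce aldehydes and ketones, did not pass either, and 0 had an unadjusted p under 0.05. Aldo-keto Reductase Family 1, Member C12, of the subfamily that reduces steroids in mammals, was at 9.71, 9.32, 8.75 and 8.02 in OF1 to OF4 and at 10.67 in NF1, 8.94 in NF3 and 10.96 in NM3. NF1 and NM3 lay above all offshore animals and NF3 among them (log2 fold change 1.24, SE 0.59, adjusted p = 0.242). Aldo-keto Reductase Family 7, Member A3 and Aldo-keto Reductase/ Oxidoreductase were dim, at 0.90 to 3.24 in all animals, with changes of 0.74 and -0.10.

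Among hydrolases, 1 carboxylesterase fell. Similar To Carboxylesterase Family Member, of a family that cleaves ester bonds in drugs, pesticides and lipids, was at 5.84, 5.46, 5.79 and 6.32 in OF1 to OF4, and at 4.04 in NF1, 4.56 in NF3 and 3.99 in NM3. The groups lay well apart. It fell from 5.85 ± 0.35 to 4.20 ± 0.31, by 1.65 (SE 0.29, adjusted p = 0.0203), or 3.15-fold. Without 1 array the change lay between -1.83 and -1.50, and the call was lost without OF3, OF4 or NF1 (adjusted p from 0.0629 to 0.0639). The other title of the family, Carboxylesterase, was at 1.25 to 2.38 in all animals (0.52, adjusted p = 0.329), and Catalytic/ Epoxide Hydrolase at 1.21 to 2.54 (0.07, adjusted p = 0.939). Without detection calls, how far such dim titles stand above background cannot be given.

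**Figure D2:**
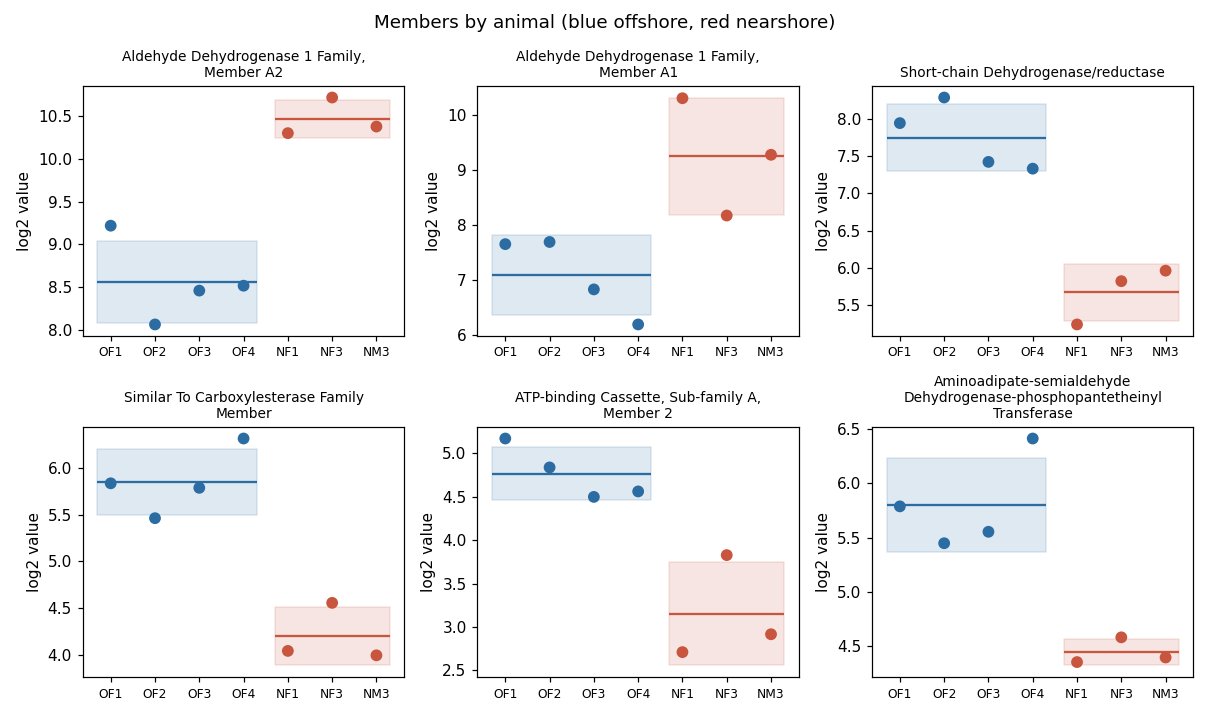
Log2 value of 6 titles in each animal, the 5 that passed and Aldehyde Dehydrogenase 1 Family, Member A1; lines are group means and bands are 1 SD (n = 4 offshore, n = 3 nearshore). The axes do not start at 0. In all 6 panels the offshore and nearshore points do not overlap.

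The 6 ABC titles covered several subfamilies, and 1 fell. ATP-binding Cassette, Sub-family A, Member 2, a lipid transporter of vertebrate brain, was at 5.17, 4.84, 4.50 and 4.56 in OF1 to OF4 and at 2.71 in NF1, 3.83 in NF3 and 2.92 in NM3. All nearshore values lay below all offshore values, with NF3 nearest to them. It fell by 1.61 (SE 0.34, adjusted p = 0.0339), or 3.06-fold, at levels below the median of the table. It passed in 1 of the 7 fits without 1 array, the one without NF3 (-1.95, adjusted p = 0.0355). Without OF1, OF2, OF3, OF4, NF1 or NM3 the adjusted p ran from 0.0684 to 0.0880, and over the 7 fits the change ran from -1.95 to -1.39.

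Subfamily C includes transporters that export glutathione and glucuronide conjugates in vertebrates. In its titles here the imposex animal NM3 was extreme in opposite directions, highest in Member 11 and lowest in Member 6. NM3 was also the most frequent extreme over all titles with all values, at 36.7%, so such extremes were not particular to the subfamily. ATP-binding Cassette, Sub-family C, Member 11 was at 10.08 in NM3, 1.95 above the next animal, while NF1 and NF3 were at 8.14 and 5.87 and the offshore animals at 6.37 to 7.93. Member 6 of the subfamily was at 0.76 in NM3, 2.63 below the next animal, while all others lay between 3.39 and 4.37. That value in NM3 lies near the lowest of the whole table, 0.27. The site differences of 1.09 and -0.89 did not pass (adjusted p = 0.515 and 0.535). Without NM3 they were 0.07 and 0.18, so the former shrank and the latter changed sign. ATP-binding Cassette, Sub-family A, Member 3, known for surfactant lipids in lung, was high in OF4 alone, at 4.42 against 0.91 to 2.54 in the others. ATP-binding Cassette, Sub-family B, Member 7, a mitochondrial transporter tied to iron-sulfur proteins, was at 1.29 to 3.79. ATP-binding Cassette, Sub-family F, Member 2 has no membrane part and is not a transporter. It had the smallest range of the members above the median level of the table, at 12.47 to 12.96 in all 7 animals.

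Both UDP-sugar transferase titles had higher means nearshore and neither passed. Similar To UDP Glucuronosyltransferase 2 Family, Polypeptide B34, of the family that attaches glucuronic acid to steroids and drugs, was at 6.88, 6.43, 6.55 and 5.69 in OF1 to OF4, at 7.5 in NF1, at 6.23 in NF3 and at 10.13 in NM3. NM3 lay 2.63 above the next animal and NF3 within the offshore range. The log2 fold change was 1.56 (SE 0.85, adjusted p = 0.298), and 0.48 without NM3. Similar To UDP Glycosyltransferase 1 Family, Polypeptide A10 was at 5.60 to 6.82 offshore and 6.47 to 7.24 nearshore (0.71, adjusted p = 0.256).

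Over the 51 members with all values, NM3 was the highest animal in 13 and the lowest in 12 (49.0%). It was also the most frequent extreme over the 4275 titles with all values, at 36.7%. OF4 followed among the members, highest in 10 and lowest in 11. NM3 is 1 animal, so no test bears on imposex, and its array also lacked 45 of the 4328 titles, against at most 3 on any other. Without NM3, 1 member rose and 2 fell, and the median over the members was 0.19. Over all 4328 titles 302 were called without NM3, against 400 on all arrays.

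**Figure D3:**
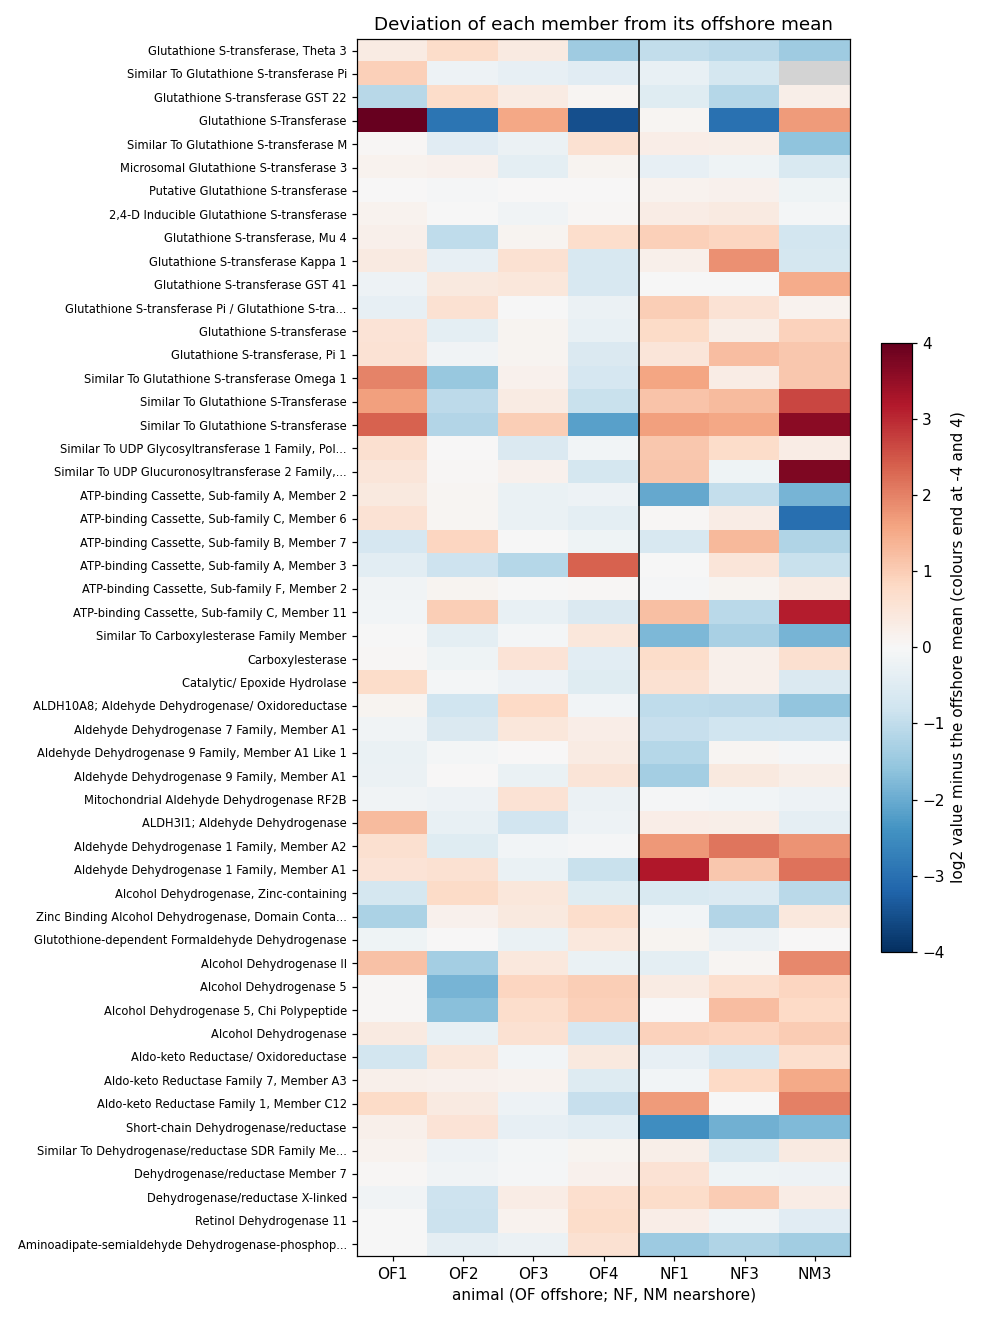
Log2 value of each member in each animal minus its offshore mean, grouped by class, with red above and blue below; the grey cell is a missing value and colours end at -4 and 4. The columns of NF1, NF3 and NM3 share the rise of Aldehyde Dehydrogenase 1 Family, Member A2 and the 4 falls, while Glutathione S-Transferase varies most among the offshore animals.

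The glutathione transferases, which join glutathione to electrophiles, formed the largest class, with 17 titles. None of them passed between the sites in limma (2 had an unadjusted p under 0.05), and in none did the groups separate, against 9.24% of all titles called and 24.4% separated. The median log2 fold change of the class was 0.35, with 11 titles above 0, and its median offshore SD was 0.59, against 0.44 over all titles. Several of its titles differed more between animals of a site than between the sites.

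The table held 2 pairs of titles that differ only in the case of the letter t. Similar To Glutathione S-transferase was at 16.15, 12.61, 14.78 and 11.63 in OF1 to OF4, and at 15.42 in NF1, 15.34 in NF3 and 17.41 in NM3. Its range of 5.78 was exceeded by only 85 of the 4328 titles. Similar To Glutathione S-Transferase, with the capital, was at 11.05, 8.38, 9.74 and 8.52 in OF1 to OF4, and at 10.56 in NF1, 10.68 in NF3 and 12.11 in NM3. In both, NM3 was the highest animal, and OF2 and OF4 were the lowest. Their site differences of 2.26 (SE 1.12, adjusted p = 0.252) and 1.69 (SE 0.72, adjusted p = 0.192) lay within the spread between animals.

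Glutathione S-Transferase, with the capital, varied most of all members. It was at 12.85, 5.05, 9.51 and 4.45 in OF1 to OF4, and at 8.05 in NF1, 5.0 in NF3 and 9.68 in NM3. High and low animals occurred at both sites, and only 18 of all titles had a range above its 8.39. Its site difference was -0.39 (SE 2.15, adjusted p = 0.940). Glutathione S-transferase, in lower case, was steady by comparison, at 13.23 to 14.15 offshore and 13.83 to 14.53 nearshore (0.64, adjusted p = 0.260).

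In Glutathione S-Transferase, OF1, OF3, NF1 and NM3 lay above OF2, OF4 and NF3, and this split was then looked for in the marker lists. Of the 20 digestive gland titles, 3 had it and 17 did not. It also occurred in 1 of the 12 haemocyte titles, and in none of the muscle, nerve or ovary titles. The share over all titles was not taken, so the count does not show a trait particular to digestive gland titles. Amylase, Alpha 1A; Salivary, a starch-digesting enzyme, was at 14.12, 5.83, 12.70 and 4.81 in OF1 to OF4, and at 9.16 in NF1, 5.19 in NF3 and 11.80 in NM3. Similar To Pancreatic Triglyceride Lipase was at 9.74, 4.55, 8.93 and 3.71 in OF1 to OF4, and at 7.23, 3.06 and 9.42 in NF1, NF3 and NM3. Chitinase 1 was the third title. Of the 20 marker titles, 17 lay below the median level of the table, and Lipase 1, at 5.83 to 8.24 in all animals, was highest in OF2.

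A limma fit on all titles with site and the log2 summed level of the 20 markers as terms was added after these values were seen. Glutathione S-Transferase changed by 1.23 (SE 0.12, adjusted p = 0.00805) and Similar To Glutathione S-transferase by 0.63 (SE 0.07, adjusted p = 0.0101) per unit of this summed level. These were 2 of 52 members, against 0.97% of all titles (42, all with a positive slope). The 20 marker titles were among all titles, so that share includes titles fitted against a sum that they make up. The sum also has the split of animals already seen in Glutathione S-Transferase, so its small p-value restates that likeness and is no independent support. Similar To Glutathione S-Transferase (0.38, adjusted p = 0.169) and Similar To Glutathione S-transferase Omega 1 (0.36, adjusted p = 0.684) did not pass. Leaving out 1 array, the former slopes lay between 1.06 and 1.36 and between 0.58 and 0.67, and passed in 5 and 4 of 7 fits. The first missed without OF1 (adjusted p = 0.0568) or OF3 (0.0503), and the second without OF1 (0.107), OF3 (0.0541) or OF4 (0.0969). At a given summed level, Similar To Glutathione S-transferase was 2.73 higher nearshore (SE 0.32, adjusted p = 0.0227) and Similar To Glutathione S-Transferase 1.96 higher (SE 0.37, adjusted p = 0.0369), but neither site difference passed in any of the 7 fits without 1 array (adjusted p from 0.0525 to 0.123). Whether these transcripts came from digestive gland in the samples was not tested.

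**Figure D4:**
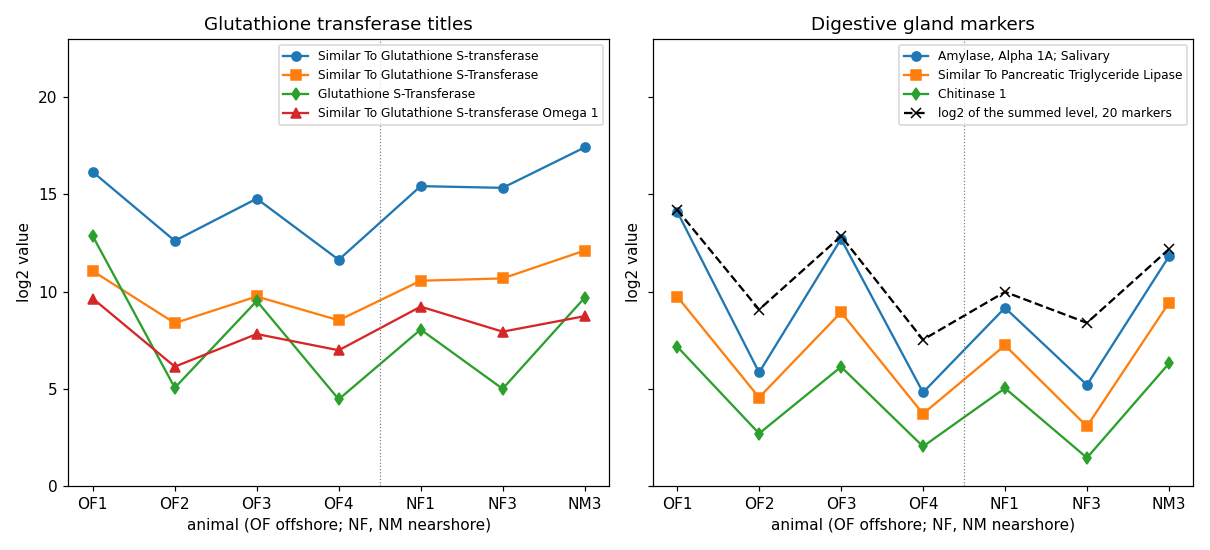
Log2 values of 4 glutathione transferase titles (left) and of 3 digestive gland markers with the log2 summed level of all 20 (right) in each animal; the dotted line parts the sites. Glutathione S-Transferase and the 3 plotted markers are high in OF1, OF3, NF1 and NM3 and low in OF2, OF4 and NF3, while the pair of Similar To Glutathione S-transferase titles stays high in NF3.

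None of the glutathione transferase titles that name a class passed the test. Glutathione S-transferase, Pi 1, of a cytosolic class, was at 6.85 to 8.01 offshore and 7.92 to 8.65 nearshore (0.94, SE 0.34, adjusted p = 0.134). Glutathione S-transferase Pi / Glutathione S-transferase Pi 2 was at 11.23 to 12.18 offshore and 11.69 to 12.56 nearshore (0.57), whereas Similar To Glutathione S-transferase Pi, which has no value in NM3 and was fitted on 6 arrays, had a difference of -0.50. Glutathione S-transferase, Theta 3 was at 0.93 to 3.09 offshore and 0.92 to 1.38 nearshore (-1.16, adjusted p = 0.209). Glutathione S-transferase, Mu 4 and Similar To Glutathione S-transferase M were 0.89 and 1.45 below their means in NM3, which was the lowest animal of the latter, while OF2 was the lowest of the former, at 6.74. Similar To Glutathione S-transferase Omega 1 followed the order of the markers only in part, with 9.64 in OF1 and 6.14 in OF2. Microsomal Glutathione S-transferase 3, a membrane enzyme, was at 12.56 to 13.13 offshore and 12.34 to 12.79 nearshore (-0.37). The other 5 titles, among them Glutathione S-transferase Kappa 1 and the plant-derived 2,4-D Inducible Glutathione S-transferase, lay at 1.03 to 5.5.

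With that summed level in the fit, Short-chain Dehydrogenase/reductase (-2.05), Similar To Carboxylesterase Family Member (-1.70), Aldehyde Dehydrogenase 1 Family, Member A2 (1.94) and Aminoadipate-semialdehyde Dehydrogenase-phosphopantetheinyl Transferase (-1.40) still passed (adjusted p from 0.0313 to 0.0474). ATP-binding Cassette, Sub-family A, Member 2 kept its size (-1.62) and missed the threshold (adjusted p = 0.0540). The summed level of the muscle list, given above and holding a non-muscle myosin, separated the sites as these titles did. Its part in the differences was not tested.

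Other genes of the same pathway were read from a list of 51 titles, of which 3 rose and 3 fell (11.8% called, against 9.24% of all titles), and 13 separated the sites (25.5%, against 24.4%). Of 24 titles of monooxygenation, 2 rose and 2 fell. The falls were in Cytochrome P450, Family 3, Subfamily A, Polypeptide 5, named for an oxidase of steroids and drugs, which fell by 3.43, and in another title of its subfamily, which fell by 2.76. These 2 titles had nearly equal values in OF1 (9.14 and 9.03), OF4 (9.73 and 9.71) and NM3 (7.04 and 7.08), but not in NF1 (3.46 and 5.04). Whether they read the same transcript was not tested, and they are counted as 2 falls. The subfamily's remaining title, Cytochrome P450, Family 3, Subfamily A, Polypeptide 43, had a difference of -0.16 (adjusted p = 0.784). Cytochrome P450, Family 1, Subfamily B, Polypeptide 1 rose by 1.68 and Cytochrome P450, Family 4, Subfamily A, Polypeptide 10 by 1.38. Their adjusted p ran from 0.0280 to 0.0470, and each passed in only 1 to 3 of the 7 fits without 1 array. Of 7 titles of sulfation and acetylation 1 rose. Sulfotransferase Family 1B, Member 1 was at 3.79 to 4.63 offshore and at 5.76 in NF1, 5.17 in NF3 and 6.44 in NM3, and rose by 1.62 (SE 0.38, adjusted p = 0.0418). A title of the same enzyme, Sulfotransferase Family, Cytosolic, 1B, Member 1, had a difference of 0.07 (adjusted p = 0.971). Sulfotransferase, Estrogen-preferring had one of 1.32 (adjusted p = 0.122).

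Among 14 titles of glutathione synthesis and peroxide removal, 1 fell (7.14%, against 9.24% of all titles called) and 7 separated the sites (50%, against 24.4%). Peroxiredoxin 3, which removes peroxides in mitochondria, was at 9.61, 8.81, 9.32 and 9.89 in OF1 to OF4 and at 8.0 in NF1, 8.06 in NF3 and 6.73 in NM3, and fell by 1.81 (SE 0.42, adjusted p = 0.0419). It passed in none of the 7 fits without 1 array (adjusted p from 0.0583 to 0.113), and Sulfotransferase Family 1B, Member 1 only in that without NF3. Peroxiredoxin 6 was higher in each nearshore animal (1.21, adjusted p = 0.0824) and Glutamate-cysteine Ligase, Catalytic Subunit, the enzyme that limits glutathione synthesis, had a difference of -0.73 (adjusted p = 0.354). None of the 5 titles of glucuronate supply and conjugate hydrolysis passed, and 0 of them had an unadjusted p under 0.05. UDP-glucose 6-dehydrogenase, which makes the sugar donor for glucuronidation, was at 1.19 to 2.56 in all animals (-0.27, adjusted p = 0.726), and Sulfatase Modifying Factor 1 had a difference of -0.33. Of the regulators searched for, the list matched only Aryl Hydrocarbon Receptor Interacting Protein-like 1, a co-chaperone and not the receptor itself (0.62, adjusted p = 0.268).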

How the data were processed

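The table deposited by the authors holds 1 value per gene title and array for 4328 titles and 7 arrays, read here as log2 from its range; the base is not stated. Agilent Feature Extraction is the tool named, per the submitters' processing notes. How the authors normalized the values, treated background and condensed probes to titles: not given in the sources used here. Array means ran from 5.83 to 5.89, so the values were taken as normalized. There are no detection calls, and the number of arrays limits the precision. Brightness differs between probes, so the levels of different titles do not give their relative transcript amounts. The marker sums, the median level of the table and the words dim and bright do set titles side by side, and describe signal only.

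All titles were fitted with limma 3.58.1 in R 4.3.3 (lmFit, eBayes, group as the term; offshore the reference; missing values left out per title), which was first tested on simulated data. SE is the moderated standard error. Two-sided p-values were adjusted over all titles by the Benjamini-Hochberg method. The p-values measure the spread between these animals. Members were found by the pattern given in the report. Named titles are those that passed, the 3 with the smallest p and the one with the highest mean in each class, and likewise for the pathway list (2 per class); others were named after their values were seen. Members and lists were chosen with earlier results of these data known. The alternatives were other normalizations, variance models, filters, thresholds and memberships, same-name titles averaged, a block, and each array left out. The marker covariate was added after the data were seen.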

Additional observations from a re-analysis of the deposited data

Results flagged for a closer look

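In 3 of the 52 members 1 offshore animal stood far from the other 3, measured as its gap to the nearest of them over the range of the group (Dixon's criterion at 95%). Chance flags about 1 in 20 such groups. Microsomal Glutathione S-transferase 3 was at 12.56 in OF3, against 13.08 to 13.13 in OF1, OF2 and OF4. Aldo-keto Reductase Family 7, Member A3 was at 0.90 in OF4, against 1.56 to 1.60 in the other offshore animals. Mitochondrial Aldehyde Dehydrogenase RF2B was at 2.0 in OF3, against 1.21 to 1.29, and both of these titles lie near the bottom of the scale.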

How the results depend on the processing

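Against 1 rise and 4 falls among the members, the counts were 2 and 4 without the dimmest 25% of titles or with a robust mean-dependent prior, 1 and 2 with a plain mean-dependent prior or an unmoderated test, 3 and 3 with the marker covariate, 2 and 4 at an adjusted p under 0.1, and 0 and 0 at 0.01. With 1 array left out, rises numbered 0 to 1 and falls 0 to 3, with 0 calls in limma without OF3, OF4 or NF1 (10, 8 and 9 members at an unadjusted p under 0.05). Calls became fewer over the whole table too. Of 4328 titles, 400 were called on all arrays, 42 without OF3, 34 without OF4 and 116 without NF1. Members whose groups did not overlap numbered 10 to 16 with 1 array left out, 16 without OF1 and 14 to 15 without NF1, NF3 or NM3, and 11 after quantile normalization. With fewer animals, groups separate more easily in any title. The share over all titles in these settings is not given here, so the counts say nothing particular to the members. The members' median was 0.17 after quantile normalization, 0.35 without the dimmest titles and 0.0233 to 0.19 with 1 array left out. The 3 rises and 3 falls of the pathway list became 0 and 0 in the unmoderated test (7 and 6 unadjusted) and at 0.01, and 2 and 1 with the covariate. They were 0 to 2 and 0 to 2 with 1 array left out, and 0 and 0 without OF2, OF3 or OF4.

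The numbers in the animal codes were used as a replicate block. They name animals within a site. Deviations of same-numbered animals from their group means had r = 0.01 for NF1 and OF1, -0.21 for NF3 and OF3, and 0.29 for NM3 and OF3, over 4275 titles. With so few animals per group these deviations depend on each other, so the values cannot settle whether the animals were paired. With the block 0 members, 0 pathway titles and 0 of all titles passed in limma, with 9 members at an unadjusted p under 0.05. The block leaves few residual degrees of freedom.

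Small differences changed sign without being called. Aldo-keto Reductase/ Oxidoreductase was 0.035 after quantile normalization and 0.24 with the block, and ran from -0.48 to 0.16 with 1 array left out, above 0 without OF2, OF4, NF1 or NF3. Catalytic/ Epoxide Hydrolase was -0.0526 with the block and -0.20 to 0.41 with 1 array left out, below 0 without OF4 or NF1. In the same fits Dehydrogenase/reductase Member 7 ran from -0.19 (without NF1) to 0.21, Sulfatase Modifying Factor 1 from -0.73 to 0.0506 (without NF1), Retinol Dehydrogenase 11 from -0.39 to 0.14 (above 0 without OF4 or NM3) and ATP-binding Cassette, Sub-family C, Member 6 from -1.48 to 0.18 (without NM3). The cause of these changes was not tested.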

Other observations

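Titles outside the members also had the ordering of animals seen in Glutathione S-Transferase. Iduronate 2-sulfatase, a lysosomal enzyme, was at 8.24, 2.52, 7.96 and 3.05 in OF1 to OF4, and at 6.76, 3.4 and 9.0 in NF1, NF3 and NM3. C-type Lectin Domain Family 10, Member A was at 12.09, 5.08, 11.08 and 5.29 in OF1 to OF4, and at 9.1, 5.24 and 12.12 in NF1, NF3 and NM3. Both were picked after their values were seen. The number of titles associated with the summed level of the 20 digestive gland titles, 42 in the fit on all arrays, ran from 0 without OF3 and 14 without OF1 to 40 without NF3. The titles that make up the sum were among those fitted.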
